A study of Homo sapiens with 14 samples.

Results

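The intermediate filament genes described here are vimentin (VIM) and 7 keratins, KRT8, KRT18, KRT19, KRT7, KRT10, KRT23 and KRT80, chosen by symbol from the 36601 genes of the single-cell tables and from the 60624 genes of the bulk tables. All 8 were found in both assays, and another 48 keratin symbols in the single-cell tables served as a comparison list. The samples were human colorectal cancer lines grown without passage: SW480 and SW620, which came from a single patient, and SW620-TET2CD, which overexpressed the catalytic domain of the DNA demethylase TET2. The labels name the control line SW620, and the study describes its SW620 control for this construct as carrying an empty FLAG vector. Single-cell RNA-seq had 1 library for each of days 6, 9, 12 and 15 from both SW620-TET2CD and SW620. Bulk RNA-seq covered SW480 and SW620 on day 6, and SW620 and SW620-TET2CD on day 15 after the cells had been passed over a strainer into those inside and those outside colonies, again with 1 library each. Since no condition was repeated, p-values below rest on the spread between libraries of different days or lines that is left after the block of each fit. Where cells of the same library were compared by VIM, p-values rest on how that difference varied between libraries.

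Intermediate filaments are rope-like cytoplasmic polymers. Keratins form them as obligate pairs of an acidic type I chain and a basic type II chain, and simple epithelia such as the colon lining are built mainly on the type II keratin KRT8 with the type I keratins KRT18 and KRT19. Vimentin, a type III protein, builds the filaments of mesenchymal cells, and a rise of vimentin beside a loss of epithelial junctions is commonly read as a sign of epithelial-mesenchymal transition (EMT).

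The study's limits on cells, a mitochondrial share of no more than 10%, between 1000 and 20000 UMIs and between 200 and 4500 genes, kept 48282 of 67056 barcodes, and the study states fewer cells past its quality control. Each single-cell library held 3894 to 8154 kept cells with 48186195 to 74185723 UMIs, and the median cell had 6640 to 13479 UMIs. Bulk libraries held 16470176 to 25840563 expected counts. TET2 stood at 40.2 to 107 CPM, the UMIs of a gene scaled to 1000000 UMIs in the library, in the 4 SW620-TET2CD single-cell libraries and at 2.11 to 3.90 CPM in the 4 SW620 libraries. Of the 7 colorectal epithelial markers, 4 to 6 were above 1 CPM, led by EPCAM at 496 to 639 CPM, whereas CDX1 did not exceed 0.207 CPM. The 8 fibroblast markers summed to 8.94 to 29.0 CPM, led by LUM (4.31 to 27.2 CPM). Of the collagens, COL1A1 was at 1.15 to 3.35 CPM, and COL1A2 and COL3A1 were at or near 0. The endothelial markers summed to 0.379 to 1.39 CPM. The leukocyte markers summed to 7.23 to 57.4 CPM from CD68 and LYZ, with PTPRC at or near 0. Any 2 single-cell libraries shared 0.0257% to 0.334% of the smaller one's barcodes.

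VIM (ENSG00000026025) lies on chromosome 10, from 17228241 to 17237593 on the plus strand of GRCh38, and VIM-AS1 overlaps it. The type II genes KRT8, KRT7 and KRT80 lie on chromosome 12, and so does KRT18, the one type I gene outside the cluster on chromosome 17. KRT18 (52948871 to 52952906, plus strand) meets the longest KRT8 transcripts (52897187 to 52949954, minus strand) head to head. KRT10 (40818117 to 40822614), KRT23 (40922700 to 40937646) and KRT19 (41523617 to 41528308) lie on the minus strand of chromosome 17. KRT7 overlaps KRT7-AS, KRT86 and KRT87P. The bulk kit did not mark strand, so reads from overlapping genes cannot be told apart in the bulk libraries. The part of the genes overlapping KRT7 in its bulk counts was not tested. The 51 KRT8 pseudogenes held at most 0.341% of the KRT8 count and the 67 KRT18 pseudogenes at most 0.107% of the KRT18 count. The count assigned to the antisense gene VIM-AS1 was at most 0.969% of that of VIM.

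RefSeq promoter windows matched 3 of the 8 genes, VIM, KRT8 and KRT10, and not KRT18, KRT19, KRT7, KRT23 or KRT80. The KRT8 window lies 21393 bases upstream of the start of GENCODE's canonical KRT8 transcript and is not shown. The VIM and KRT10 windows are shown because they end where the canonical transcript of the gene starts. Each run gives the 250 bases before the start, 5′ to 3′ on the gene's own strand (GRCh38.p14), with matches in capitals to any of 5 short motifs searched on both strands: the TATA box TATAAA, the GC box GGGCGG, the CCAAT box, the AP-1 motif TGANTCA and the E-box CAGGTG.
VIM promoter, chr10:17227991-17228240, plus strand: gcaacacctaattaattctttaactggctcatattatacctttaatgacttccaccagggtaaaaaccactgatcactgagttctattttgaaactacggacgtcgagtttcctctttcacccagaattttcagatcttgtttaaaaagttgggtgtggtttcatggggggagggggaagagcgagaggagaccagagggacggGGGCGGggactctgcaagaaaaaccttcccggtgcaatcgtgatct
KRT10 promoter, chr17:40822615-40822864, minus strand: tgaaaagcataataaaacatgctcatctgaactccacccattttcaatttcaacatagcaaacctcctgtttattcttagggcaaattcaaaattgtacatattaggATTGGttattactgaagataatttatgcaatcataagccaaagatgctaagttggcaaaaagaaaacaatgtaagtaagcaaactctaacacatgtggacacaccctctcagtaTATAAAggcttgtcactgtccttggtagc

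In the VIM window the capitals mark the GC box GGGCGG, which starts 46 bases before the start and which 42.6% of the 35114 windows of this length hold. In the KRT10 window they mark a TATA box, TATAAA, 29 bases before the start (10.7% of windows) and a CCAAT box on the other strand 143 bases before it (32.0% of windows). Neither window held TGANTCA, the AP-1 motif (6.57% of windows), or CAGGTG, an E-box of the kind bound by SNAI and ZEB repressors (17.5% of windows). The VIM window had 8 CpG dinucleotides and the KRT10 window 0, where the median window had 11. These are letter matches and no measure of binding.

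KRT8 and KRT18 dominated the filament mRNA of these cells. On the length-corrected TPM scale of the bulk libraries, KRT8 ranged from 2277 to 5751 TPM, KRT18 from 2601 to 4645 TPM and KRT19 from 344 to 1056 TPM, while VIM ranged from 11.4 to 320 TPM. KRT10, a keratin best known from differentiating epidermis, ranged from 16.3 to 34.1 TPM. KRT8, KRT18 and KRT19 together made up 95.4% to 97.5% of all keratin CPM in the single-cell libraries. In bulk they made up 93.4% to 98.5% of keratin TPM in the 5 SW620 and SW620-TET2CD libraries and 72.8% in SW480.

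The partner chains KRT8 and KRT18 kept a narrow ratio. KRT18 CPM was 1.40 to 1.68 times KRT8 CPM in the 8 single-cell libraries, and KRT18 TPM was 0.744 to 1.14 times KRT8 TPM in bulk. The summed type I keratins were 1.80 to 2.08 times the summed type II keratins in the single-cell libraries, and 0.821 to 1.28 times in bulk, with type I below type II in both day 6 libraries. Among the 8716 genes with a mean of at least 8 CPM that were compared with it over the 8 libraries, KRT18 was the gene most like KRT8 (Pearson's r = 0.94 of log2(CPM + 1)). These 8 points share lines and days, so the r values describe the profiles and carry no test.

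Over the culture, KRT23 rose and VIM fell in the single-cell libraries, and the other 6 genes did not pass the test between early days (6 and 9) and late days (12 and 15). In the study's account, cells grew as compact colonies through day 9 and had moved outward by days 12 to 15. In SW620, KRT23, a type I keratin, had 18.3 CPM on day 6, 23.5 on day 9, 46.0 on day 12 and 43.9 on day 15. In SW620-TET2CD it stood at 17.5, 24.9, 36.9 and 42.7 CPM on the same days. All 4 late libraries were above all 4 early ones, a separation in this direction that 29.9% of the 16526 genes tested had. The fitted rise was 0.90 on the log2 scale (SE 0.14, n = 4 libraries on each side, edgeR adjusted p = 0.000387, quasi-likelihood test with Benjamini-Hochberg adjustment). It was past the threshold in all 14 alternative fits of the same contrast, with log2 fold changes of 0.80 to 1.07.

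In SW620, VIM had 552 CPM on day 6, 408 on day 9, 327 on day 12 and 423 on day 15. In SW620-TET2CD it stood at 543, 299, 319 and 233 CPM. The early libraries (299 to 552 CPM) and the late ones (233 to 423 CPM) overlapped, and the steepest step was from day 6 to day 9 in both lines. The fitted fall was -0.58 on the log2 scale (SE 0.23, edgeR adjusted p = 0.0479). The call was lost in 8 of the 14 alternative fits: with upper-quartile factors (-0.41, adjusted p = 0.114), with every barcode (-0.54, 0.0894), without upper limits on cells (-0.52, 0.0729), without the line as a block (-0.55, 0.0856), and without SW620 day 6 (-0.54, 0.116), SW620-TET2CD day 6 (-0.34, 0.178), SW620 day 12 (-0.52, 0.109) or SW620-TET2CD day 15 (-0.44, 0.144). The sign held in all 14.

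Marker sums moved with the days too. The 8 fibroblast markers summed to 20.9, 16.9, 13.0 and 8.94 CPM over days 6, 9, 12 and 15 in SW620-TET2CD and to 29.0, 20.4 and 13.2 CPM and a lower value on day 15 in SW620, led by LUM, with 2 of 8 markers above 1 CPM in each library. The leukocyte markers went from 7.23 to 57.4 CPM between days 6 and 15 in SW620 and from 14.6 to 46.9 CPM in SW620-TET2CD. COL1A2, COL3A1 and PTPRC were at or near 0 throughout, while the collagen COL1A1 was at 1.15 to 3.35 CPM. The source of these marker UMIs was not tested.

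**Figure D1:**
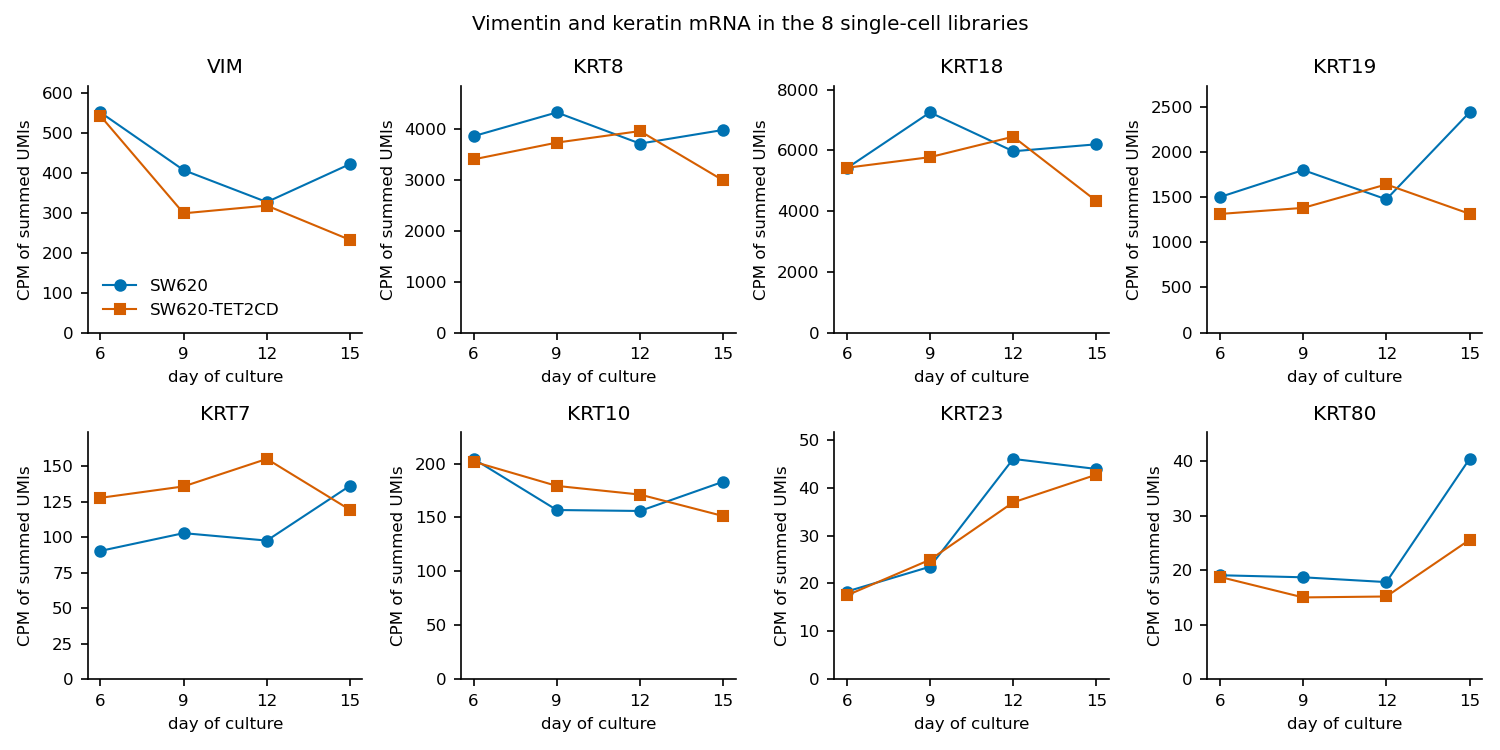
CPM of UMIs summed over kept cells (y axis, from 0) against day of culture (x axis) for each gene, 1 point per library, SW620 as circles and SW620-TET2CD as squares. KRT23 rises from 17.5 to 24.9 CPM on days 6 and 9 to 36.9 to 46.0 CPM on days 12 and 15 in both lines, while VIM starts at 543 to 552 CPM on day 6 and ends at 423 CPM in SW620 and 233 CPM in SW620-TET2CD.

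The major pair did not pass. KRT8 was at 3405 to 4327 CPM in early and 2991 to 3983 CPM in late libraries, with a fitted log2 difference of -0.16 (SE 0.14, edgeR adjusted p = 0.354), and KRT18 at 5416 to 7254 and 4335 to 6455 CPM. KRT19, a type I keratin that also pairs with KRT8, had SW620 values of 1502, 1801, 1476 and 2439 CPM (days 6, 9, 12 and 15) and SW620-TET2CD values of 1314, 1381, 1641 and 1316 CPM. Its high value was that of SW620 on day 15.

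KRT80, a type II keratin of broad epithelial distribution, had its high value in the same library. It stood at 19.0, 18.7, 17.8 and 40.4 CPM in SW620 and at 18.7, 15.0, 15.1 and 25.5 CPM in SW620-TET2CD. Its fitted log2 difference was 0.35 (SE 0.27, edgeR adjusted p = 0.277) and -0.030 without SW620 day 15. KRT10 ranged from 157 to 204 CPM early and from 151 to 183 CPM late. KRT7 is a type II keratin of ductal epithelia that the normal colon largely lacks. It ranged from 90.2 to 136 CPM early and from 97.5 to 155 CPM late. Neither KRT10 nor KRT7 passed. In 1 of 14 alternative fits, that without SW620 day 15, KRT10 was called (-0.38, edgeR adjusted p = 0.0469).

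In all, 2 of the 8 genes were called between early and late days, where 58.0% of the 16526 genes tested were called (4861 higher or 29.4%, 4726 lower or 28.6%). With upper-quartile factors the calls split into 6250 higher and 3636 lower, as that scaling moved the median gene from 0.04 to 0.21 on the log2 scale. KRT8 and KRT18, at -0.16 and -0.15 in the reported fit, came to 0.0047 and 0.012 with it. The median fold change of the 8 genes was -0.04, beside 0.04 for all genes tested.

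For each gene, the genes most like it over the 8 libraries were the highest of 8716 r values. With so many genes and so few points, a high top r is likely for any gene. These r values therefore show no shared control. VIM was most like CHCHD10 (r = 0.96), ARPC1B (0.95), a subunit of the actin-branching Arp2/3 complex, and FAM241B (0.95), and KRT10 was the keratin nearest to it (0.79). KRT23 was most like LTBP4 (0.99), HNF4A (0.99), a transcription factor of intestinal and liver epithelium, and TMC4 (0.99), and it ran against VIM (-0.69). KRT80 was most like KRT81 (0.99), AARS (0.98) and TMEM120A (0.98). KRT19 followed UBALD2 (0.95), the interferon-induced ISG15 (0.94) and NT5C (0.92). KRT18 followed the ribosomal protein gene RPS9 (0.98) and SCAND1 (0.95), and KRT8 followed ERP29 (0.93) and SCAND1 (0.92) after KRT18. KRT7 followed SRPK2 (0.89), the tight junction gene CLDN7 (0.82) and UBTD1 (0.79), and KRT10 followed DUSP12 (0.97), ANXA7 (0.96) and SSU72 (0.95).

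Among genes that work with keratins, those of the desmosome, the junction that anchors keratin filaments, moved in both directions from early to late days. Of 20 linker and desmosome genes, 18 were tested, 8 rose, 5 fell and 5 were not called, with a median of 0.16, where 58.0% of all genes tested were called with a median of 0.04. The desmosomal cadherin DSC2 rose by 1.88 on the log2 scale (SE 0.20, edgeR adjusted p = 4.23e-05), and the filament linkers EPPK1 and PLEC by 1.58 and 1.17. The trichoplein gene TCHP fell by 1.04 (SE 0.13, edgeR adjusted p = 0.000111). Of 14 other intermediate filament genes, 7 were tested: the nuclear lamins LMNB1 and LMNB2 fell, LMNB1 by 2.05, the synemin gene SYNM fell by 1.37, and desmin (DES) rose by 0.92 (SE 0.27, edgeR adjusted p = 0.0128). Of 11 EMT genes, 8 were tested: E-cadherin (CDH1) rose by 1.39 (SE 0.19, edgeR adjusted p = 0.00018), ZEB1, a repressor of CDH1, rose by 0.82, TGFB1 rose by 0.58 and TGFBR2 by 0.49, while SNAI2 fell by 0.69. With 5 of 8 EMT genes called, their share was near that of all genes.

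Of the other 48 keratins, 39 stayed under 1 CPM in all 8 libraries and 4 reached 8 CPM in at least 1. Of 11 tested, 4 rose, 2 fell and 5 were not called, with a median of 0.69, and the share called was near the 58.0% of all genes. KRT86 rose by 1.56 (SE 0.43, edgeR adjusted p = 0.0103), KRT15, a keratin of basal epithelial layers, by 0.88 and KRT39 by 0.83, and KRT5 fell by 1.96 (SE 0.49, edgeR adjusted p = 0.00637) at levels of at most 2.56 CPM. KRT81, the highest of them, ranged from 8.12 to 80.6 CPM and was not called (1.07, SE 0.59, edgeR adjusted p = 0.141).

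Between the lines, none of the 8 genes passed the test, where 4.21% of the 16526 genes did (391 higher and 305 lower in SW620-TET2CD). On 4 of 4 days VIM was below its SW620 level in SW620-TET2CD, by 0.02, 0.45, 0.04 and 0.86 on the log2 scale of CPM on days 6, 9, 12 and 15, with a fitted difference of -0.44 (SE 0.17, edgeR adjusted p = 0.238). KRT80 was also lower on 4 of 4 days, with log2 ratios of -0.02, -0.32, -0.23 and -0.66 in the order of days. Its fitted difference was -0.41 (edgeR adjusted p = 0.13). The share of all genes lower on 4 of 4 days was not counted. KRT7 went the other way, with 128, 136 and 155 CPM in SW620-TET2CD on days 6, 9 and 12 against 90.2, 103 and 97.5 CPM in SW620, and crossed on day 15 (119 against 136 CPM). Its fitted difference was 0.25 (edgeR adjusted p = 0.559). With either day 15 library left out, the fit compared days 6, 9 and 12 and KRT7 was called, at 0.49 (edgeR adjusted p = 0.00728) without SW620 and 0.48 (0.00757) without SW620-TET2CD. The same fits brought VIM to -0.20 and -0.21 and KRT80 to -0.22 and -0.23. VIM, KRT19 and KRT80 were called with no filter on low counts (edgeR adjusted p = 0.00611, 0.0181 and 0.00197).

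For VIM, KRT8, KRT18, KRT19, KRT10 and KRT80 the lines lay farthest apart on day 15. The share of all genes with this trait was not counted. There KRT19 was at 1316 CPM in SW620-TET2CD and 2439 in SW620, KRT18 at 4335 and 6204, KRT8 at 2991 and 3983 and VIM at 233 and 423, all lower in SW620-TET2CD. On day 12 KRT8, KRT18 and KRT19 were higher in SW620-TET2CD by 0.09, 0.11 and 0.15. Of the comparison lists, PKP1 was the one linker gene called between the lines (1.42, SE 0.30, edgeR adjusted p = 0.0189), FN1 (-0.98) and SNAI2 (-0.83) were the called EMT genes, and KRT5 was higher (2.10) and KRT86, KRT40 and KRT15 lower (-0.78, -0.47 and -0.45) in SW620-TET2CD. The change from early to late days was tested for a difference between the lines by an interaction term. With edgeR 0 of 16526 genes passed, and 0 with DESeq2. An unadjusted edgeR p under 0.05 was found for 130 genes, fewer than chance alone gives at that threshold. The days of a side stood in for replicates, so differences between days entered the error of this fit. The lack of calls is therefore no evidence that the lines changed alike. VIM had an interaction of -0.37 (edgeR adjusted p = 1.00) and KRT23 of -0.30.

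**Figure D2:**
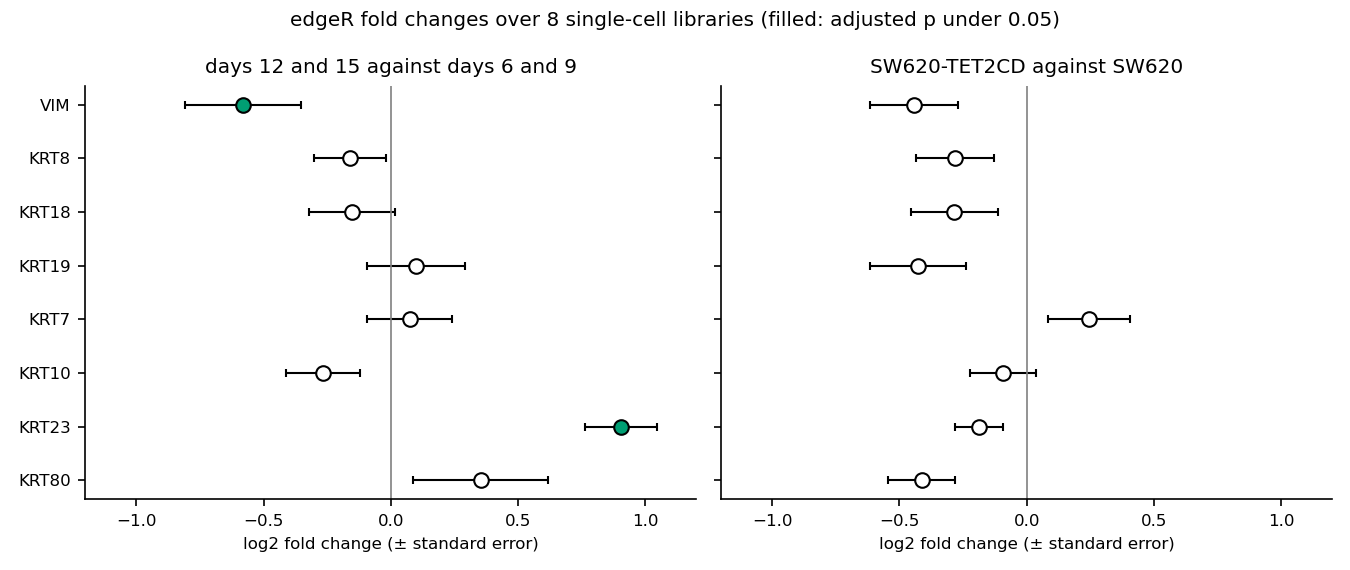
edgeR log2 fold changes (x axis, with standard error bars) of the 8 genes for days 12 and 15 against days 6 and 9 (left) and for SW620-TET2CD against SW620 (right), over 8 single-cell libraries; filled points have an adjusted p under 0.05. KRT23 at 0.90 and VIM at -0.58 are filled on the left, and no point is filled on the right.

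Within the libraries, VIM mRNA was found in a part of the cells. To compare cells at 1 depth, each kept cell was thinned to 2000 UMIs, which left out 333 shallower cells. A VIM UMI was then found in 52.1% of SW620 cells on day 6 (exact 95% interval 50.8 to 53.4), 43.4% on day 9, 37.1% on day 12 and 42.0% on day 15. In SW620-TET2CD the shares were 50.9%, 33.0%, 33.7% and 27.8% (26.6 to 28.9). The order of the shares followed that of the CPM values except for SW620 days 9 and 15, and without thinning the shares ran from 52.9% to 82.5%. The intervals cover counting error only.

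The variance of VIM UMIs over cells was 1.77 to 2.56 times the mean, where a purely random draw gives a ratio near 1, and single cells reached 22 VIM UMIs of 2000. The ratio was of that size or higher for the abundant KRT8 (2.11 to 3.16), KRT18 (2.53 to 4.72) and KRT19 (1.89 to 2.90). Among the sparse keratins it was 1.05 to 1.40 for KRT7 and 1.13 to 1.49 for KRT23. It was near 1 for KRT10 and KRT80 (1.03 to 1.09 and 0.989 to 1.09). The ratio tends to grow with the mean, so it does not rank the genes by unevenness. The mean was 0.467 to 1.09 UMIs for VIM and 8.67 to 14.5 UMIs for KRT18. KRT8 and KRT18 were found in 98.0% to 99.7% and 99.5% to 99.97% of thinned cells, and KRT19 in 80.6% to 93.8%. KRT23 was found in 3.00% to 4.47% of early and 6.09% to 7.60% of late thinned cells. Free RNA in the droplets can give UMIs to cells that do not express a gene, and these cultures hold no other cell type in which its level could be read.

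Cells with a VIM UMI carried more of several keratins, and less KRT23, than cells of the same library without one. UMIs of 19606 cells with and 28343 cells without a VIM UMI were summed by library, and the 16 sums were compared with the library as a block. KRT19 was higher in cells with VIM in 8 of 8 libraries: 1649 against 1411 CPM in SW620 day 6, 2113 against 1638 on day 9, 1827 against 1362 on day 12 and 2689 against 2372 on day 15. In SW620-TET2CD it was 1416 against 1277, 1558 against 1372, 2137 against 1459 and 1669 against 1319 CPM. The fitted difference was 0.31 on the log2 scale (SE 0.03, n = 8 libraries, edgeR adjusted p = 1.94e-09).

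KRT23 was lower in cells with VIM in 8 of 8 libraries. In SW620 it stood at 12.3 against 24.7, 17.6 against 29.6, 32.8 against 52.7 and 22.0 against 53.6 CPM in the order of days, and in SW620-TET2CD at 14.3 against 18.5, 16.2 against 27.7, 34.5 against 37.5 and 32.7 against 43.3 CPM. The fitted difference was -0.69 (SE 0.08, edgeR adjusted p = 1.97e-07), the smallest gap being that of SW620-TET2CD on day 12. KRT80 was higher with VIM in 8 of 8 libraries (0.39, SE 0.07, edgeR adjusted p = 9.33e-05), and KRT10 too (0.13, SE 0.03, edgeR adjusted p = 0.00258).

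The major pair differed least. KRT18 was higher with VIM in 7 of 8 libraries by 0.08 (SE 0.02, edgeR adjusted p = 0.0255), and KRT8 in 6 of 8 by 0.06 (adjusted p = 0.0704), which did not pass. KRT7 was higher by 0.18 in 6 of 8 libraries (edgeR adjusted p = 0.00243). The calls of KRT7 and KRT18 depended on the draw of UMIs, with adjusted p of 0.209 and 0.071 under another seed. KRT7 also lost its call when cells were thinned to 4000 UMIs (0.138) or not thinned (0.365), and KRT18 lost its call without SW620 day 9, SW620-TET2CD day 12 or SW620-TET2CD day 15, at 0.0605 to 0.0919. The calls of KRT19, KRT23, KRT80 and KRT10 held in all 13 alternative fits.

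Of the 7 keratins, 6 were called (5 higher, 1 lower), where 13.1% of the 12156 genes tested were called (7.93% higher, 5.19% lower). A gene higher in all 8 libraries was 4.32% of those tested, and a gene lower in all 8 was 4.25%. The median cell with a VIM UMI had a mitochondrial share lower by 0.407 to 0.917 percentage points than the median cell without, in 8 of 8 libraries, and its UMI count before thinning was 0.959 to 1.07 times as high. The part of these measures in the keratin differences was not tested.

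**Figure D3:**
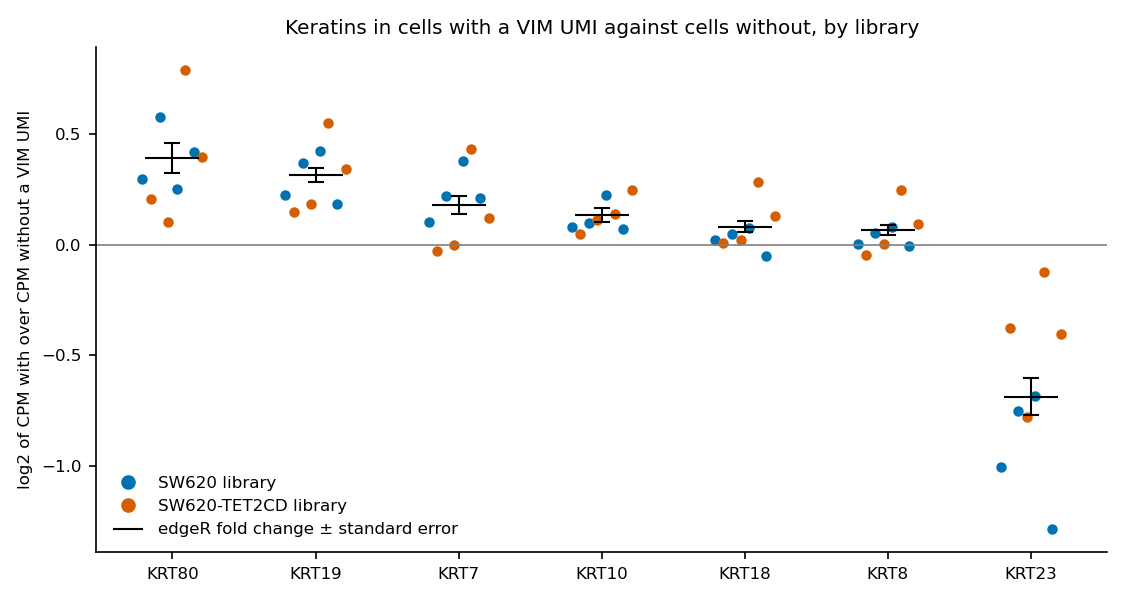
log2 of the CPM of each keratin in cells with a VIM UMI over that in cells without (y axis), 1 point per library in the order SW620 and SW620-TET2CD by day, with the edgeR fold change and its standard error as a black bar. All 8 points of KRT80, KRT19 and KRT10 are above 0, and all 8 of KRT23 are below 0.

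The number of VIM UMIs in a cell graded the KRT19 level. From cells with 0 through 1 and 2 to cells with 3 or more VIM UMIs, KRT19 CPM rose at each step in 7 of 8 libraries, and its median over libraries went from 1392 CPM at 0 to 1971 CPM at 3 or more. KRT10 and KRT80 were higher at 3 or more than at 0 in 8 of 8 libraries (medians 168 to 215 CPM and 17.4 to 28.6 CPM). KRT23 fell over the steps only in part: in SW620 day 15 it stood at 53.6, 29.4, 14.9 and 12.9 CPM, but in SW620-TET2CD day 15 at 43.3, 29.9, 33.4 and 43.4 CPM. In 3 of 8 libraries, cells with 3 or more VIM UMIs had more KRT23 than cells with 0. Cells with 3 or more VIM UMIs were 4.35% to 15.1% of a library, and these grades carry no test of their own.

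**Figure D4:**
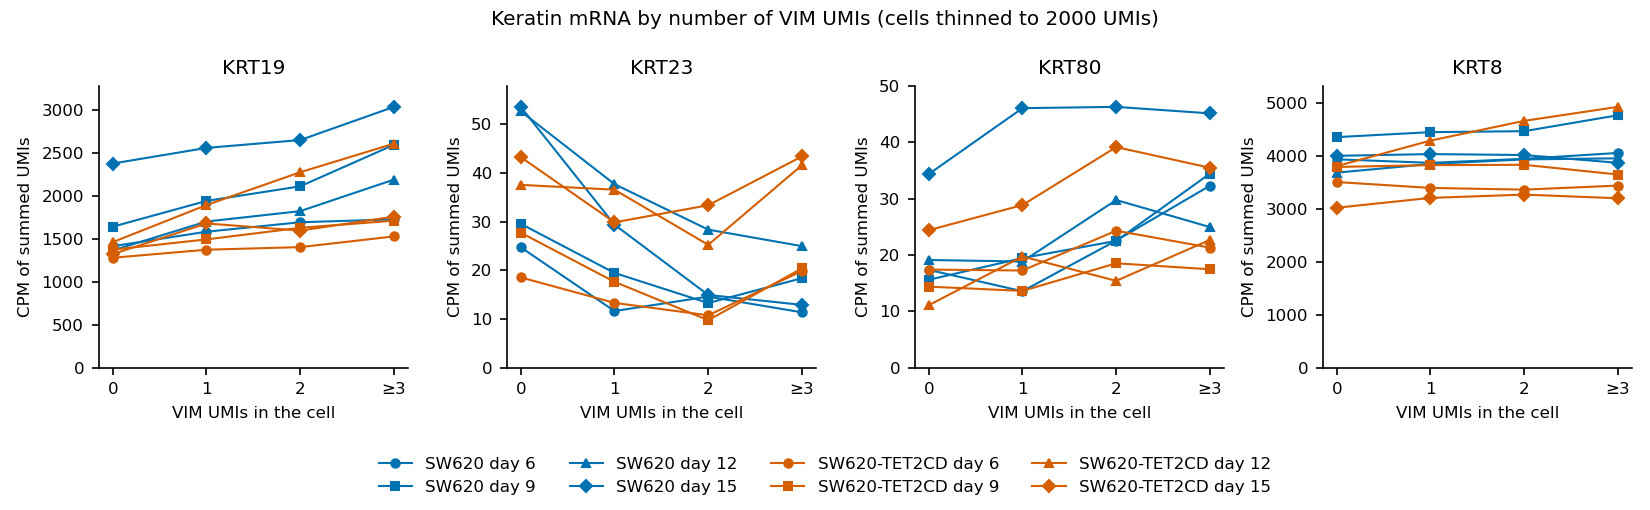
CPM of KRT19, KRT23, KRT80 and KRT8 (y axes, from 0) in cells with 0, 1, 2 and 3 or more VIM UMIs (x axis), after thinning to 2000 UMIs, 1 line per library. KRT19 climbs along the axis, with a median of 1392 CPM at 0 and 1971 CPM at 3 or more, KRT23 is lower at 1 than at 0 VIM UMIs in each library, and KRT8 rises at each step in 3 of 8 libraries, most in SW620-TET2CD day 12 (3807 to 4925 CPM).

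Other genes of the lists split by VIM as well, beside the 13.1% of all genes called. Of 5 other intermediate filament genes tested, BFSP1 (0.47), NES (0.30), the neural progenitor filament nestin, and LMNA (0.28, SE 0.03, edgeR adjusted p = 4.61e-09) were higher in cells with VIM. Of 17 linker and desmosome genes, SFN (0.45), DST (0.28), PLEC (0.23) and YWHAQ (0.17) were higher and EVPL (-0.41) and PERP (-0.12) lower. Of 8 EMT genes, ZEB1 was higher (0.62, SE 0.11, edgeR adjusted p = 7.19e-05) and FN1 (-0.51) and CDH1 (-0.19) lower. Of 5 other keratins, KRT81 was higher by 1.23 (SE 0.07, edgeR adjusted p = 7.31e-14) and KRT40 lower by 0.26. The called genes with a mean of at least 8 CPM that had the largest differences, singled out after their values were seen, were EREG (1.84), EMP1 (1.57), ANXA1 (1.57), CAV1 (1.34) and KRT81 on the higher side and PRSS2 (-1.69), CALML3 (-1.16), TSPAN8 (-0.92), LIPC (-0.84) and FAM3B (-0.81) on the lower side.

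VIM ranged more widely over the bulk libraries than over the single-cell libraries. It stood at 320 TPM in SW480 and 120 in SW620 on day 6, at 11.4 inside and 24.6 outside colonies in SW620 on day 15, and at 41.6 inside and 180 outside in SW620-TET2CD. The highest value was 28.1 times the lowest, and 15.8 times without SW480, which has no single-cell library, against 2.38 times over the 8 single-cell libraries. KRT7 ranged over 38.3-fold and KRT23 over 19.9-fold in bulk, but over 3.59-fold and 5.02-fold without SW480, while KRT18 ranged over 1.79-fold and KRT10 over 2.09-fold with all 6. As each bulk condition was 1 library, these ratios have no replicate check, and in bulk fewer cells expressing a gene and less RNA per cell cannot be told apart.

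SW480, from the primary tumour, and SW620, from a lymph node metastasis of the same patient, differed on day 6 by over 2-fold in 3 of the 8 genes. KRT23 was at 357 TPM in SW480 and 17.9 TPM in SW620, a log2 ratio of 4.30 of CPM with 1 CPM added. VIM was higher in SW480 by 1.40, and KRT7 was lower by 3.42, at 3.42 against 58.1 TPM. Past 2-fold were 25.8% of the 16309 genes with at least 1 CPM in either library. KRT8, KRT18 and KRT19 were within 2-fold (-0.33, 0.13 and 0.49). SW480 also had 3081 TPM of KRT5, the type II keratin of basal epithelial cells, against 0.94 TPM in SW620, and 134 TPM of KRT13 against 0.24 TPM, 2 genes singled out after their values were seen.

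VIM was lower in both day 15 fractions of bulk SW620 than in the day 6 library, with log2 ratios of -3.25 inside and -2.18 outside colonies. The sources do not say whether the day 6 library came from the parental or the vector-carrying line. Past 2-fold were 8.54% and 7.48% of all genes compared. KRT8 (-0.87 and -0.78), KRT19 (-0.82 and -0.68), KRT7 (-0.67 and -0.54) and KRT18 (-0.47 and -0.47) were lower on day 15 but within 2-fold, and KRT23 was higher by 0.52 and 0.47. KRT80 was higher by 0.49 inside and by 1.09 outside, the latter 0.97 on the TPM scale. In the single-cell libraries of the same line, VIM on day 15 was 0.765 times its level on day 6 and KRT8 1.03 times, while KRT19, KRT7 and KRT18 were 1.62, 1.51 and 1.15 times as high, opposite in direction to bulk.

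**Figure D5:**
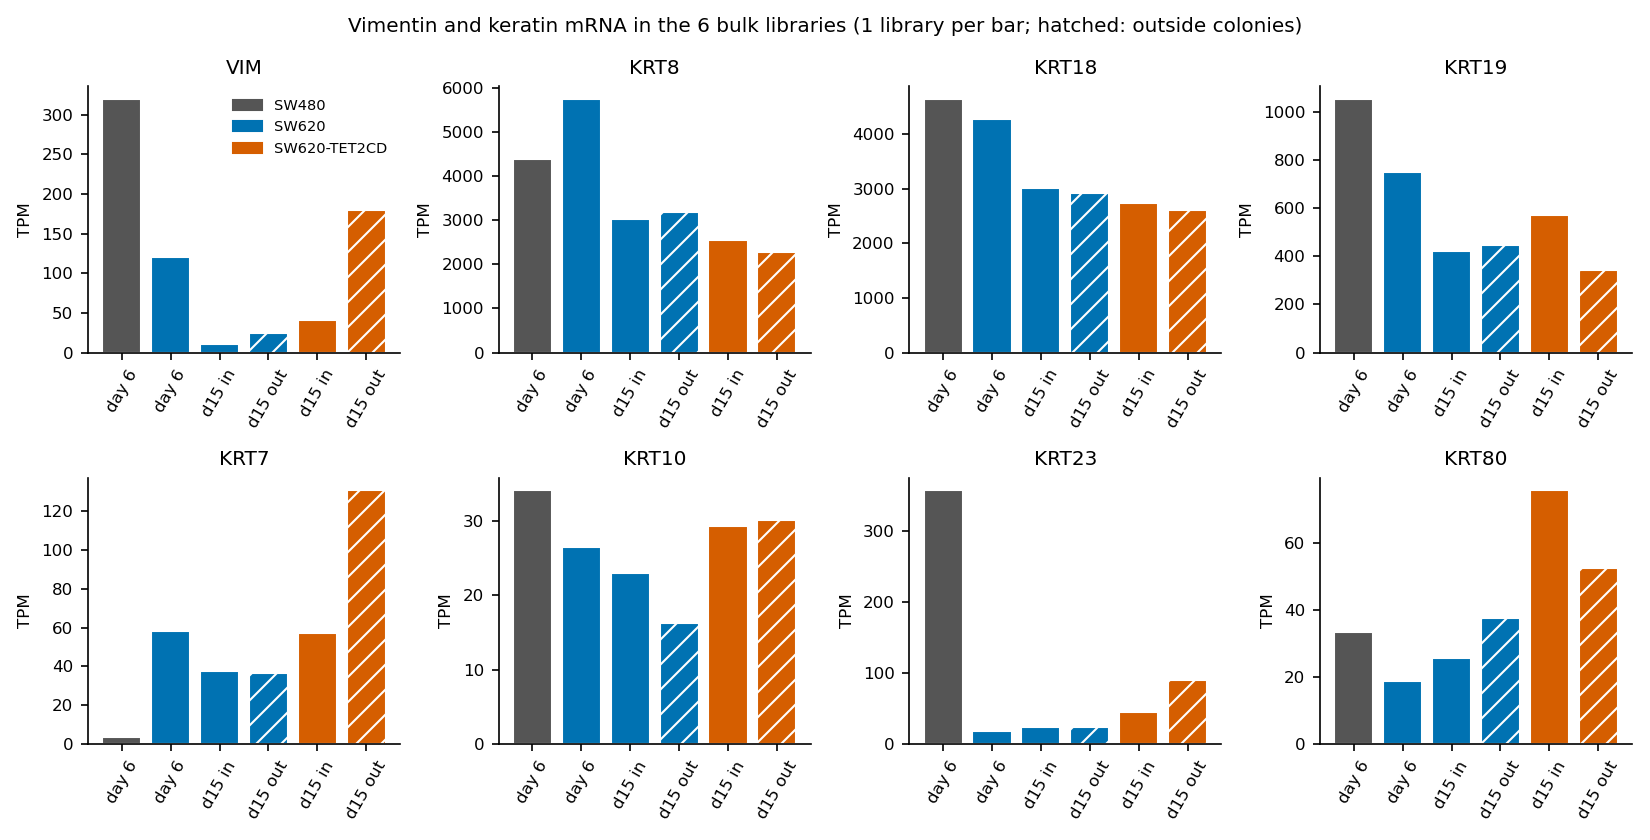
TPM (y axis, from 0) of the 8 genes in the 6 bulk libraries, 1 bar per library, SW480 grey, SW620 blue and SW620-TET2CD orange, with cells from outside colonies hatched. SW480 has 357 TPM of KRT23 against 17.9 to 89.8 TPM in the other libraries, and VIM is at 11.4 TPM inside SW620 colonies and at 180 TPM outside SW620-TET2CD colonies.

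On day 15, cells outside colonies had more VIM than cells inside in both lines, at 24.6 against 11.4 TPM in SW620 and 180 against 41.6 TPM in SW620-TET2CD. It was past 2-fold in both lines, as were 0.492% of genes in SW620 and 5.46% in SW620-TET2CD. The fitted rise was 1.62 on the log2 scale (SE 0.24, n = 2 libraries on each side, edgeR adjusted p = 0.772). This fit had 1 residual degree of freedom, which leaves little room for calls. None of the 8 genes passed, and 0.00% of the 17722 genes tested did with edgeR, which had 1068 genes at an unadjusted p under 0.05, while DESeq2 called 21 genes. VIM was among these (DESeq2 adjusted p = 2.48e-07), and with no filter on low counts edgeR called VIM (adjusted p = 4.76e-08) and KRT7 (adjusted p = 0.00888). Without SW620-TET2CD outside, the fitted difference of VIM was -0.035. That fit had no line as a block, so it set SW620 outside against the inside libraries of both lines. TET2 itself was at 38.1 TPM inside and 124 TPM outside colonies in SW620-TET2CD, against 1.15 and 1.29 TPM in SW620, and its part in the differences was not tested.

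The keratins did not move together between the fractions. KRT7 was higher outside in SW620-TET2CD (131 against 57.1 TPM) and alike in SW620 (36.5 against 37.8 TPM), with a fitted difference of 0.86 (SE 0.34, edgeR adjusted p = 0.772). KRT23 was likewise at 89.8 against 45.4 TPM in SW620-TET2CD and 23.5 against 24.6 TPM in SW620. KRT19 was lower outside in SW620-TET2CD (344 against 574 TPM) and slightly higher in SW620 (448 against 421 TPM). KRT80 was higher outside in SW620 (37.4 against 25.6 TPM) and lower outside in SW620-TET2CD (52.4 against 75.7 TPM). KRT8 and KRT18 had log2 ratios of 0.09 and 0.0044 in SW620 and of -0.25 and -0.12 in SW620-TET2CD. Of the 18 linker, 8 EMT, 7 other filament and 9 other keratin genes tested, 0 were called with edgeR. With 1 residual degree of freedom in that fit, the lack of calls says little about these genes.

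Between the lines the bulk and the single-cell libraries of day 15 pointed opposite ways for VIM. In the single-cell libraries VIM was lower in SW620-TET2CD, at 233 against 423 CPM. In bulk it was higher in SW620-TET2CD, by 1.68 inside and 2.72 outside colonies on the log2 scale of CPM with 1 CPM added. KRT80 (1.52 and 0.37) and KRT23 (0.87 and 1.83) were also higher in SW620-TET2CD in both bulk fractions, but not in the single-cell libraries of that day (-0.66 and -0.04). KRT7 was higher by 1.24 inside (0.58 on the TPM scale) and by 2.66 outside, against -0.19 in the single-cell libraries. Past 2-fold were 4.60% of genes inside and 7.35% outside. These 1-library comparisons were added after the data were seen. The assays differed in kit and in fractionation, which cannot be told apart. The sources do not say whether both assays drew on the same cultures.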

How the data were processed

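UMI counts per gene and cell were deposited by the authors as filtered matrices from Cell Ranger 4.0 (10x 3′ v3.1 chemistry, GRCh38). Bulk expected counts and TPM were deposited by the authors as RSEM gene tables from unstranded TruSeq libraries aligned with Bowtie. The labels name mm10 as their build, but the gene identifiers are human. In the deposited files the matrix, feature and barcode lists were read as they stand, and no batch was given.

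UMIs were summed over kept cells by library, with no doublet caller run. Tests used edgeR 4.0.16 (filterByExpr, TMM, quasi-likelihood, two-sided) on summed counts or rounded expected counts, adjusted by Benjamini-Hochberg across the tested genes, and called at 0.05. DESeq2 1.42.0 was an alternative. Late against early days had the line as a block, the lines had the day as a block, and location had the line as a block. Each fit was also run on simulated counts with a known log2 change of 1.5 in 200 genes. These counts held no other day, line or library effects, so they checked the working of the fits and not their power in these data. All 8 genes were named, and so were the 3 genes most like each and up to 4 called genes per list and comparison with the largest change; 1 of these is not reported here. The 8 genes, the lists and the tests were chosen with earlier results of these data known. Single-library comparisons used TMM-scaled CPM plus 1. Thinned shares carry exact binomial intervals, and 3 counts of a library came to 0.0404 to 0.0623 CPM.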

Additional observations from a re-analysis of the deposited data

Results flagged for a closer look

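KRT80 stood apart in the SW620 library of day 15, at 40.4 CPM, where the other 3 SW620 libraries were at 17.8 to 19.0 CPM. Among the 4 libraries of days 6 and 9, KRT80 was apart in SW620-TET2CD day 9, at 15.0 CPM against 18.7 to 19.0 CPM. Both were found by Dixon's test at the 95% level among 32 sets of 4 libraries, where chance flags about 1 in 20.

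In bulk on day 15, 5 genes had outside over inside ratios of opposite sign in SW620-TET2CD and in SW620. This difference was not tested, and the share of all genes with opposite signs was not counted. The log2 ratios in SW620-TET2CD were -0.25 for KRT8, -0.12 for KRT18, -0.76 for KRT19, 0.92 for KRT23 and -0.56 for KRT80. In SW620 they were 0.09, 0.0044, 0.14, -0.051 and 0.59 in the same order, so KRT18 and KRT23 hardly differed there. On the TPM scale KRT18 was lower outside in both lines, at 2925 against 3020 TPM in SW620 and 2601 against 2745 TPM in SW620-TET2CD.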

How the results depend on the processing

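No paired analysis was possible because the labels gave no replicate numbers, other than the matching by line, day or library that the reported fits hold as a block. Depth limited KRT23 and KRT80 most, and 3-library fits without a bulk library had no block, so the lone library was assumed to vary like the others. Genes called between the lines went from 696 to 1489 with no filter on low counts, to 46 without the day as a block, and to 416 to 680 with 1 library left out (416 without SW620 day 9, 426 without SW620-TET2CD day 9). The interaction went from 0 to 15 genes with no filter. Location went from 0 to 21 genes with DESeq2 and 472 with no filter. The split by VIM went from 1595 genes to 813 with DESeq2, 2662 when thinned to 4000 UMIs and 4366 when not thinned. With a pseudocount of 0.1 CPM, genes past 2-fold from day 6 to day 15 in SW620 came to 2184 inside and 1970 outside, from 1336 and 1168. The median share of cells with a VIM UMI, 39.6%, came to 25.0% at 1000 UMIs, 53.6% at 4000 UMIs, 38.0% over every barcode with enough UMIs and, in an alternative chosen after seeing the data, 67.6% when not thinned. A linear trend over the days gave VIM -0.10 per day on the log2 scale (edgeR adjusted p = 0.019).

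Signs turned as follows, and the cause was not tested. From early to late days, KRT7 came to -0.071 with every barcode and -0.017 without upper limits, KRT19 to -0.030 with every barcode, and KRT8 and KRT18 to 0.0047 and 0.012 with upper-quartile factors. With 1 library left out, the same contrast ran from -0.030 to 0.53 for KRT80, from -0.10 to 0.20 for KRT7 and from -0.13 to 0.23 for KRT19, and each lowest value was without SW620 day 15. Between the lines KRT10 ran from -0.17 to 0.069. The interaction ran from -0.76 to 0.16 for VIM, -1.03 to 0.30 for KRT80, -0.62 to 0.016 for KRT7, -0.33 to 0.18 for KRT8, -0.48 to 0.20 for KRT18 and -0.61 to 0.27 for KRT19. Location ran from -0.035 to 3.04 for VIM, -0.60 to 1.25 for KRT23, -0.24 to 0.047 for KRT18, -0.67 to 2.03 for KRT7, -0.79 to 0.77 for KRT80 and -0.43 to 0.18 for KRT8. The location fits with 1 library left out had no line as a block, so differences between the lines entered these values.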
